A study of Mus musculus with 574 samples.

Results

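Of 500 sorted granulocyte/macrophage progenitors (GMPs) from mouse marrow, 74 had their highest score for a set of genes read in the erythroid, mast cell and basophil lineages. They are called E cells here. GMPs are best known as the source of neutrophils and monocytes. The members were chosen by measured values: each cell was scored by its mean log2(CPM + 1) over Gata1, Gata2, Car2 and Ms4a2, where CPM is a gene's reads after all reads in genes of a cell or a sum are scaled to a common total, and by 3 further sets of 4 genes. Those were a monocyte set (Irf8, Csf1r, Ly86 and F13a1), a granulocyte set (Elane, Fcnb, Cebpe and Gstm1) and a stem cell set (Adgrg1, Angpt1, Ifitm1 and Hoxa9). Each score was expressed in standard deviations from its mean over all 500 cells (z), and an E cell is one whose highest z was that of the E set. The same rule gave 160 monocyte-leaning, 127 granulocyte-leaning and 139 stem-leaning cells.

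The cells came from C57Bl/6 wild-type mice aged 6 to 12 weeks. Mice received 5-fluorouracil (5-FU), a pyrimidine analogue that kills dividing cells, once at 150 mg/kg, or PBS as the control, and the labels name days 0, 8, 10, 12 and 14. The label of each cell gives 5-FU, day 0 included, and does not say whether the day 0 mice were injected. Bones were crushed or flushed, marrow was enriched for c-Kit, and cells that were c-Kit+, CD34+ and FcγR+ but lacked Sca-1 and lineage antigens were sorted 1 to a well. Libraries were made by Smart-seq2, which reads whole transcripts and counts no molecular identifiers. Days 0, 10, 12 and 14 are 1 set of cells each and day 8 is 2 sets. The labels do not give the mice or the bone preparation behind a set, nor say that the 2 day 8 sets are from different animals. The p-values below therefore rest on the spread within that 1 pair of sets, which may be technical. Values given in set order are for day 0, the first and the second day 8 set, and days 10, 12 and 14.

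GATA1 and GATA2 are zinc finger transcription factors that bind the bases GATA and act in erythroid, megakaryocyte, mast cell, basophil and eosinophil precursors. Erythroid precursors make KLF1, which turns on globin and membrane genes, and the erythropoietin receptor. Mast cells and basophils store histamine, carboxypeptidase and serine proteases in granules, and release them through the high-affinity IgE receptor, whose alpha and beta chains are FCER1A and MS4A2. Ter119, a marker of later red cells, is in the lineage antibodies of the sort. FcγR, part of the gate, is low on the progenitors of the erythroid and megakaryocyte lineages.

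Promoter sequences are shown for 4 genes of the erythroid or the mast cell side whose values are given below: Epor, the erythropoietin receptor, Ms4a2, Fcer1a, and Cpa3, the mast cell carboxypeptidase. Each window is the 250 bases before the RefSeq gene start (GRCm38.p6), 5′ to 3′ on the gene's strand, and capitals mark AGATAA, a form of the GATA motif, or its reverse complement TTATCT.
Epor: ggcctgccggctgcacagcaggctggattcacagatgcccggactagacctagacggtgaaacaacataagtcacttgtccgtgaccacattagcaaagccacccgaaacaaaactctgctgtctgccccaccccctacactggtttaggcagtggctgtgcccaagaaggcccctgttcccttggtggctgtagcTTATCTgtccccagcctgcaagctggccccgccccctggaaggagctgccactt
Ms4a2: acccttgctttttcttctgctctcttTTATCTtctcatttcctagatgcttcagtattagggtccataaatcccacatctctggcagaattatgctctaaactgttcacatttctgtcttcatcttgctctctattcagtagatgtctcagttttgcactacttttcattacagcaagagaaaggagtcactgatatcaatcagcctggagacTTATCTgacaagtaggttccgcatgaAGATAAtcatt
Fcer1a: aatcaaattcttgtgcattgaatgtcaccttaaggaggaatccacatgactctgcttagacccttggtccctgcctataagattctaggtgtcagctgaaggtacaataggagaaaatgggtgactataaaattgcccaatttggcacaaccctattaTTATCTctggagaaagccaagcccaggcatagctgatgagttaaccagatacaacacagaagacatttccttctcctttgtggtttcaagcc
Cpa3: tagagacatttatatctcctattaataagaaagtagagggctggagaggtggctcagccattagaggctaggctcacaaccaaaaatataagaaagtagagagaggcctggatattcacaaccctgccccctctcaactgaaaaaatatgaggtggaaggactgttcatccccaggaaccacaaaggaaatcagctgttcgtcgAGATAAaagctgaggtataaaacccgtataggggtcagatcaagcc
The windows lie on the minus strand at chr9:21963577-21963826 (Epor), chr19:11623720-11623969 (Ms4a2), chr1:173227230-173227479 (Fcer1a) and chr3:20242182-20242431 (Cpa3). In Ms4a2 the motif stands 224, 37 and 11 bases before the start, in Fcer1a 92, in Epor 54 and in Cpa3 46 bases before it. A match on either strand was found in 7 of 14 promoters of the mast cell and basophil list (50%), namely Cpa3, Fcer1a, Prss34, Slc18a2, Il1rl1, Cd200r3 and Rgs13. It was found in 5 of 17 of the erythroid list (29.4%), namely Epor, Alas2, Hbb-bs, Sphk1 and Trim10, and in 3090 of all 27025 genes with a window (11.4%). All 4 windows shown hold a match and do not stand for their lists. The Klf1 window holds no match to these letters, and the erythroid genes Gfi1b and Mfsd2b are not among those found. A match is a stretch of letters and no measure of binding.

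The 6 sets differ in depth and in what fills it. E cells had a median of 107640 reads in genes and 6404 genes, against 187367 reads and 7318.5 genes in the other 426 cells. Day 14 stood apart: its 9 E cells had a median of 60010 reads and 2051 genes, and Slc34a2 alone took 608969 CPM of their summed reads, against 271229 CPM in other day 14 cells and between 114106 and 216092 CPM in E cells of the other sets. Spike-in RNA gave 21.6 gene reads per spike read in the median day 14 E cell and 30.9 to 57.7 in the other sets. Xist, read from the inactive X chromosome of females, stood at 166 and 239 CPM in E cells of days 0 and 12 and at 0 to 4.84 CPM in the others, so sex cannot be told apart from day. No doublet caller was run, since each well was sorted to hold 1 cell.

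The share of E cells was 8 of 92 on day 0 (8.70%, exact 95% binomial interval 3.83 to 16.4), 15 of 90 in the first day 8 set (16.7%, 9.64 to 26) and 29 of 93 in the second (31.2%, 22 to 41.6). It was 11 of 93 on day 10 (11.8%, 6.05 to 20.2), 2 of 85 on day 12 (2.35%, 0.288 to 8.24) and 9 of 47 on day 14 (19.1%, 9.15 to 33.3). The intervals cover counting error only. The second day 8 set lay above the first, whose label differs from it only by number, and the interval of the first overlapped those of days 0, 10 and 14. No test between days was made of the shares, as 4 of the 5 days are 1 set.

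**Figure D1:**
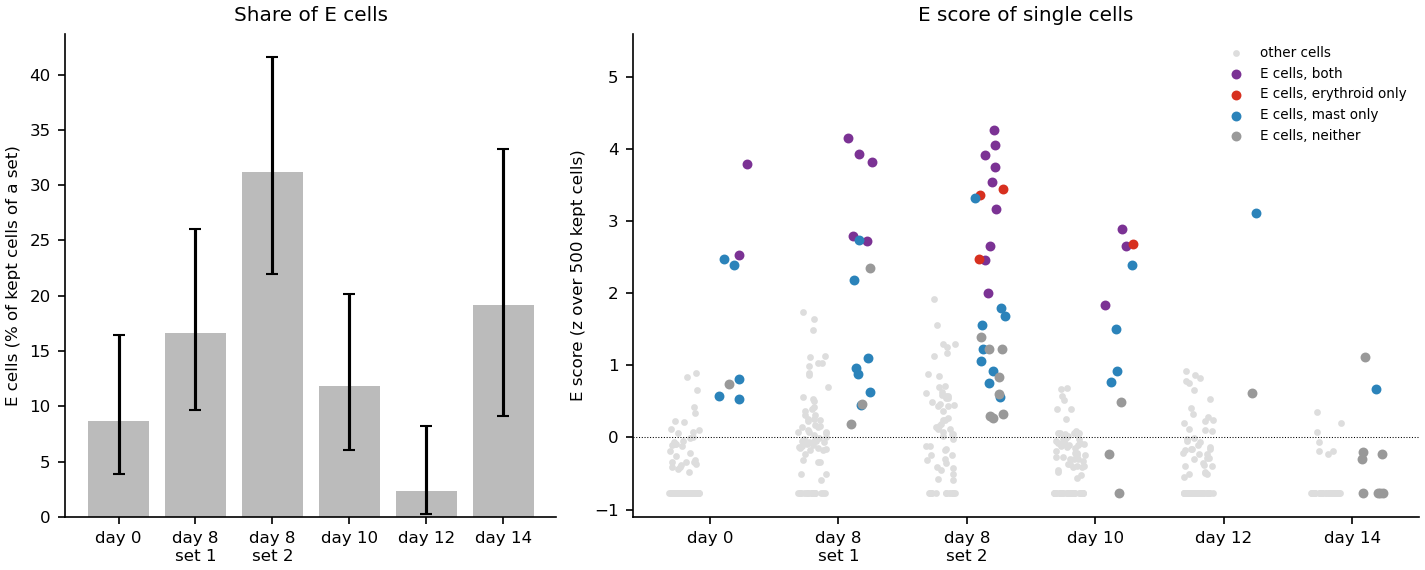
Left, the share of E cells among kept cells of each set in percent, with exact 95% binomial intervals of counting error. Right, the E score (z over 500 cells) of each cell, with other cells in grey and E cells coloured by whether the erythroid and the mast cell program were read. Scores of 2 and above are held by 29 E cells and by 0 other cells, and 7 of the 9 day 14 E cells lie at or below 0.

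The score was not high in all members. It was above 0 in 65 of the 74, at least 1 in 42 and at least 2 in 29, while 14 other cells, all stem-leaning and all from day 8, had an E score of at least 1. The 9 cells at or below 0 were 7 of day 14 and 2 of day 10. They had a median of 2051 genes (1890 to 4696), and 5 of them had no read of the 4 genes, while their other 3 scores were lower still. The stem cell score came second in 50 of 74 E cells, the granulocyte score in 13 and the monocyte score in 11. The next score was closer than 0.5 in 34 E cells, and 47 other cells missed E by less than 0.5. The member nearest the boundary, cell 11 of the second day 8 set, had z of 0.75 for E and 0.73 for the granulocyte set. The nearest cell outside, cell 71 of that set, had 1.92 for E and 1.94 for the stem cell set.

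The 4 genes that chose the cells are given as a description. Gata1 (chrX:7959260-7978071, minus strand) summed over E cells stood at 27.3, 138, 109, 79.1, 90.8 and 3.48 CPM in set order. It was read in 33 of 74 E cells and 18 of 426 other cells. Gata2 was the most widely read of the 4, in 62 of 74 E cells, with sums of 220, 391, 220, 193, 350 and 15.7 CPM. Car2, carbonic anhydrase 2, was read in 60 of 74 E cells but also in 167 of 426 others, and its E cell sums ran from 17.4 CPM on day 14 to 520 CPM in the first day 8 set. Ms4a2 was read in 43 of 74 E cells and 21 of 426 others, and its sums were 72.2, 303, 308, 73.5, 857 and 3.48 CPM. Both day 8 sums of Ms4a2 lay above those of days 0, 10 and 14, and the 2 cells of day 12 gave the highest sum, which came from 1 cell at 2793 CPM. These sums rest on few cells: in the median E cell Gata1 was at 0 and Ms4a2 at 6.12 CPM.

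Erythroid and mast cell programs were read together in some E cells. With each cell thinned to 50000 reads, a program was counted in a cell where at least 2 of its markers had at least 2 reads, from lists of 21 counted erythroid and 16 mast cell and basophil genes that hold none of the genes of the rule. By this count 19 of 74 E cells had both programs, 4 had the erythroid one alone, 27 the mast cell one alone and 24 neither. On these lists, 19 of the 23 E cells with the erythroid program (82.6%) also had the mast cell program, against 52.9% of the 51 E cells without it. Among the 426 other cells, 4 had both, 1 the erythroid program alone, 177 the mast cell program alone and 244 neither. In set order, cells with both made up 2 of 8, 5 of 15, 9 of 29, 3 of 11, 0 of 2 and 0 of 9 E cells. Because the score averages erythroid and mast cell genes, it favours cells that have both, and the shares among E cells are a description of the chosen cells.

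How many cells count as sharing depends on which mast cell genes are asked for. Cpa3, Mcpt8, Hdc and Slc18a2 are also read in many of the other cells, where 190 of 426 thinned cells had at least 2 reads of Mcpt8, a basophil protease, and 59 had them of Cpa3. Without these 4 genes, a setting added after seeing the data, 7 E cells had both programs, 16 the erythroid one alone and 6 the mast cell one alone, and 0 of the 426 other cells had the mast cell program. With that shorter list and 1 marker asked for, 18 E cells had both, 5 the erythroid program alone and 9 the mast cell program alone. On the full list, asking for 1 marker gave 32 with both and 1 with the erythroid program alone, and asking for 3 gave 12 and 6.

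Single genes are given as counts with no test; Gata1 and Ms4a2 are genes of the rule, so their overlap with others in E cells supports nothing. Klf1, the erythroid master regulator, had at least 2 reads in 19 thinned E cells, all 19 of which also had Gata1. Of these 19, 11 had Ms4a2, 11 had Cpa3, 8 had Fcer1a, 8 had Il1rl1 (the interleukin 33 receptor of mast cells and basophils), 5 had Mcpt8 and 0 had Prss34, a basophil protease. Seen from the other side, 11 of the 27 Ms4a2 cells, 8 of the 13 Fcer1a cells and 8 of the 11 Il1rl1 cells had Klf1, while 0 of the 6 Prss34 cells and 5 of the 44 Mcpt8 cells did. All 6 Prss34 cells had Ms4a2. Before thinning and with 1 read asked for, 24 E cells had Klf1, of which 20 had Cpa3, 14 had Mcpt8, 14 had Il1rl1, 9 had Fcer1a and 2 had Prss34. Across the 74 E cells the mean log2(CPM + 1) of the erythroid and the mast cell list had a Spearman rho of 0.48, which fell to 0.02 among the 42 with an E score of at least 1 and was 0.06 among other cells. Cells share their libraries, and the cells with low scores and few genes lie low in both lists, so no p is given.

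**Figure D2:**
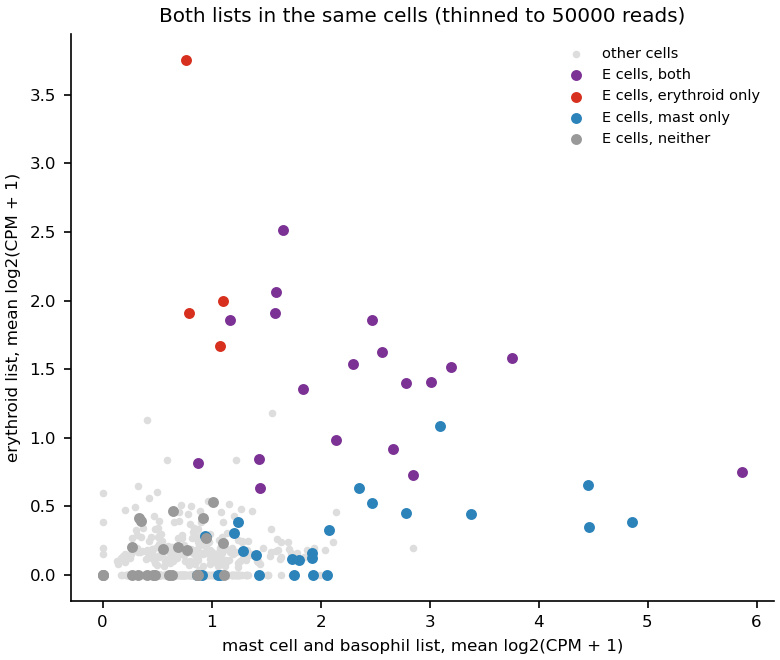
Mean log2(CPM + 1) of the mast cell and basophil list (x) and of the erythroid list (y) in each of 500 cells after thinning to 50000 reads; E cells are coloured by program and other cells are grey. Most of the 19 cells with both programs lie above the other cells on the y axis, and the 27 with the mast cell program alone spread along the x axis.

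The groups also differed in granulocyte genes and in depth. On the full list, the mast cell program alone was also counted in 177 of the 426 other cells. In the 27 E cells with it alone, median Ms4a2 was 4.80 CPM and Fcer1a was read in 4. That group is therefore not one of mast cell precursors alone. Mpo, the myeloperoxidase of primary granules, had a median of 1091 CPM in cells with both programs and 826 CPM in cells with the erythroid one alone, against 19559 CPM with the mast cell program alone and 11755 CPM with neither. Elane, a rule gene of the granulocyte score, went the same way, with medians of 123, 112, 1088 and 608 CPM in that order. Fcgr3, an FcγR of the sort gate, had a median of 11.7 CPM with both, 0 with the erythroid program alone (read in 1 of 4), 210.5 with the mast cell program alone and 9.14 with neither. Cd34 had medians of 156, 24.6, 378 and 256 CPM. The cells with both had a median of 188027 reads and 7050 genes, against 86916.5 reads and 6111 genes with the erythroid program alone, 164138 and 6691 with the mast cell program alone, and 81442.5 and 5782 with neither. The part of depth in the count of shared cells was not tested beyond the thinning; without it 22 E cells had both programs.

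**Figure D3:**
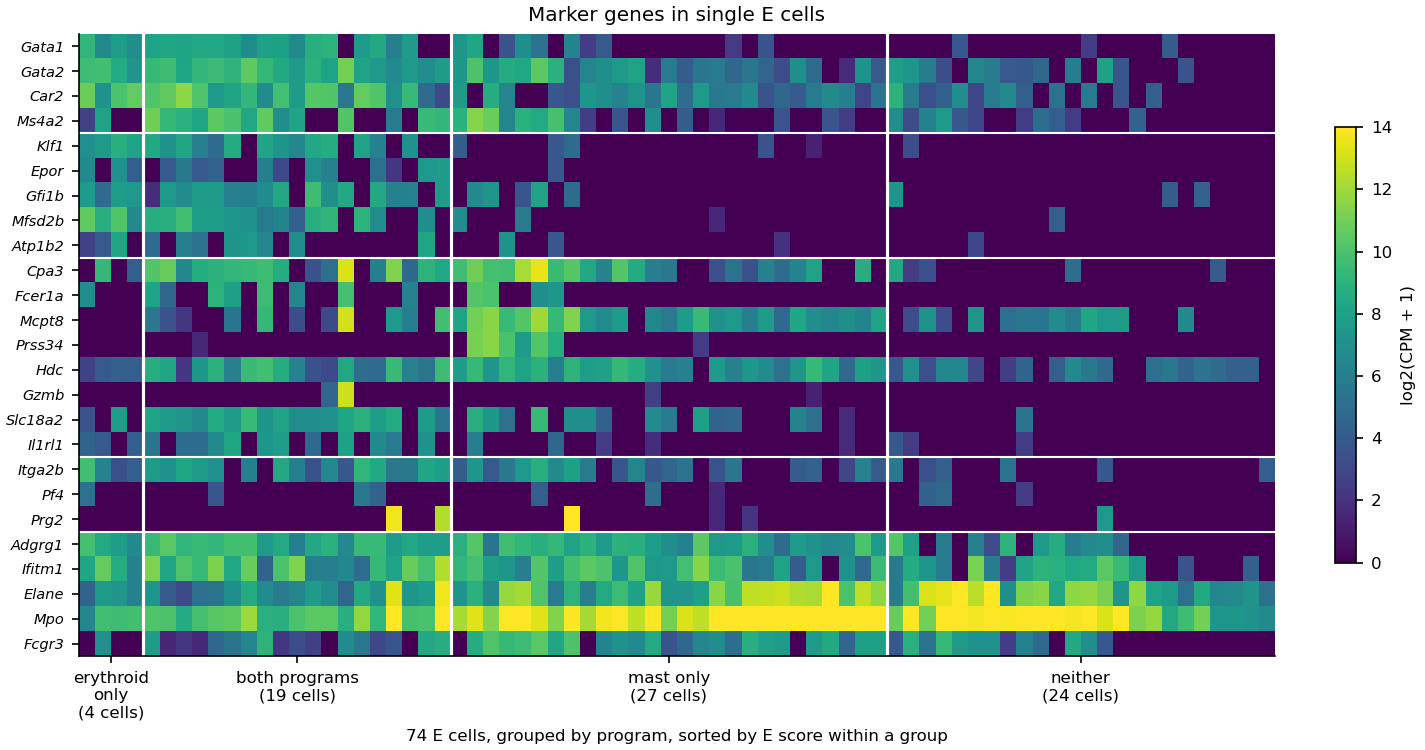
Log2(CPM + 1) of 25 genes (rows) in the 74 E cells (columns), grouped by the programs read and sorted by E score. From the top come the rule genes, erythroid genes, mast cell and basophil genes, megakaryocyte and eosinophil genes, and stem cell and granulocyte genes. Mpo and Elane are lower in most cells of the 2 left groups than in cells with the mast cell program alone. That label also fits 177 of the 426 other cells. Prss34 is read mostly in cells with the mast cell program alone.

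Single cells show the range; they were chosen after their values were seen. Cell 82 of the second day 8 set held both sides at once, with Gata1 at 275 CPM, Klf1 at 367, Ms4a2 at 2007, Cpa3 at 1172 and Fcer1a at 280. Cell 73 of day 10 had the highest Klf1 of the 74, at 432 CPM, with Mfsd2b at 1172, Epor at 135 and the water channel Aqp1 at 548, while Ms4a2 and Cpa3 had no read. Cell 39 of the first day 8 set had Cpa3 at 9633 CPM, Mcpt8 at 8561 and granzyme B (Gzmb) at 7813 with no read of Klf1. Cell 38 of that set and cell 41 of day 12 carried Prss34 at 2905 and 2267 CPM with Ms4a2 at 1763 and 2793 CPM.

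Of the erythroid regulators, Klf1 (chr8:84901928-84905291, plus strand; GRCm38, GENCODE vM21, as are all gene positions here) was read in 0 of 8, 6 of 15, 14 of 29, 4 of 11, 0 of 2 and 0 of 9 E cells in set order. Its E cell sums were 0, 68.9, 74.3, 77.9, 0 and 0 CPM, and the other cells of a set reached at most 1.13 CPM. A count of 0 of 8 allows a share of up to 36.9% by the exact interval. Gfi1b (chr2:28609450-28621982, minus strand), a repressor needed for red cells and platelets, was present in all 6 sums at 16.7, 92.5, 54.4, 136, 30.3 and 1.74 CPM. Epor was read in 16 of 74 cells, with sums of 0.760, 9.17, 11.7, 40.8, 0 and 0 CPM.

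Genes of the red cell membrane and of hemoglobin separated early from late markers. Mfsd2b (chr12:4862440-4874359, minus strand), which exports a signalling lipid from red cells and platelets, stood at 9.88, 144, 156, 151, 0 and 0 CPM. Alas2, the erythroid enzyme that starts heme synthesis, was read in 2 of 74 E cells. Hba-a1 and Hbb-bs had no read in any E cell and Hbb-bt had reads in 4. The erythroid list thus showed genes of early precursors and little of the hemoglobin stage. Summed over its 21 counted genes it stood at 82.8, 368, 336, 521, 37 and 13.9 CPM in E cells, and at 3.96 to 20.6 CPM in other cells.

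On the mast cell and basophil side, the granule protease gene Cpa3 (chr3:20215620-20242181, minus strand) stood at 1032, 1016, 227, 572, 615 and 10.4 CPM in set order. The 2 day 8 sets thus lay apart by more than either lay from day 10. Mcpt8 likewise lay higher in the first day 8 set than in the second, at 286, 666, 132, 373, 666 and 48.7 CPM. Hdc, the enzyme that makes histamine, was read in 68 of 74 E cells but also in 397 of 426 others. Slc18a2, which loads histamine into granules, was read in 36 of 74 E cells, at 86.4 to 141 CPM in the 5 sets other than day 14.

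Fcer1a (chr1:173221284-173227214, minus strand) stood at 0, 89.2, 64.8, 4.4, 370 and 0 CPM, the day 12 sum coming from 1 cell at 1205 CPM. Prss34 was at 220, 66.4, 0, 42.7, 696 and 0 CPM, from 8 cells in all, so the 2 day 8 sets did not share it. Gzmb was read in 4 of 15 E cells of the first day 8 set, at 478 CPM in sum, and in no E cell of the other 5 sets. Markers of mature connective tissue mast cells were nearly absent: Tpsb2, Tpsab1 and Mcpt4 had no read in E cells and Cma1 was read in 2. Summed over 16 genes, the list stood at 2087, 2767, 730, 1322, 2723 and 115 CPM in E cells and at 216 to 275 CPM in other cells, so day 14 E cells lay below the other cells. Slc34a2 took more of the reads in day 14 E cells than in other day 14 cells, and its part in this gap was not tested.

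Markers of other cell types were present to a varying degree. Of the megakaryocyte list, Itga2b (the platelet integrin CD41) was read in 48 of 74 E cells, at 41, 73.3, 111, 61.5, 77.3 and 3.48 CPM, and Pf4 in 10. With at least 2 reads after thinning, Itga2b was seen in 27 E cells, of which 12 had Klf1 and 19 had Ms4a2. The monocyte list summed to 188 to 1392 CPM in E cells and 671 to 6648 CPM in other cells. Macrophage and stroma genes (27.8 to 208 CPM in E cells, 57 to 107 in other cells) had 2 of 8 members at 0 over all E cells, and the dendritic cell list summed to at most 8.70 CPM. Primary granule genes summed to 15344 to 50344 CPM in E cells, against 30754 to 76933 CPM in the other cells. The part of these other markers in the results was not tested.

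Compared with the other cells of the same set, E cells differed in the direction the rule fixes, and the values here are a description with no test. The difference is that of log2 CPM of summed counts, averaged over 6 sets, and its median over all genes was −0.51. Each set counts alike in this average, also day 12 with its 2 E cells. Of 13668 genes outside the rule, 51 (0.373%) were higher in E cells in all 6 sets and by at least 1 on average, and 718 (5.25%) were lower. Without the day 14 set these were 167 (1.22%) and 771 (5.64%), and without Slc34a2 and CT010467.1, the latter at 17677.7 to 88151.1 CPM in E cell sums, 120 were higher. Nothing is read from the members' counts against these shares, since the rule used this contrast.

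Alox5 (chr6:116410077-116461178, minus strand), which makes leukotrienes from arachidonic acid, led, at a mean of 68.2 CPM in E cells and 1.29 CPM in the others (log2 difference 5.45 ± 0.64, SD over 6 sets). It was read in 31 of 74 E cells and 32 of 426 others, with E cell sums of 55.5, 191, 54.8, 38.3, 60.5 and 8.70 CPM, each above the other cells of its set, which reached 3.10 CPM. Gfi1b followed (4.96 ± 2.26). Further genes higher in all sets were the serine dehydratase relative Sdsl (2.98), Arap3 (2.63), Rab37, a GTPase of secretory granules (2.52), Mcpt8 (2.36), the zinc finger factor Ikzf2 (2.31) and the ATP-gated channel P2rx1 (1.53). Mcpt8 was read in similar shares of E cells (67.6%) and other cells (63.8%), so its difference is one of summed level. Its highest cell stood at 8561 CPM among E cells and at 1240 CPM among others. Lgals9 (1.15) was among the most abundant, with 228 to 1497 CPM in E cells. Also named by the rule were 4930519L02Rik (1.33), Nrip1 (1.15), Rbm43 (1.15), Apobec1 (1.09) and Parp11 (1.07). Arap3 and Parp11 were among the genes whose largest difference came from day 12, with 2 E cells (6.64 and 3.11). In the other sets these genes differed by 0.189 to 3.39 and by 0.214 to 1.20. P2rx1, 4930519L02Rik, Apobec1 and Parp11 turned to the other sign in cells with at least 200000 reads, and Nrip1 did in E cells with a score of at least 1. Without day 14, Rnase12 (5.24), Apoe (4.82), Cpa3 (4.53), Slc18a2 (3.20) and Itga2b (2.84) also passed in each of the 5 sets.

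Genes of monocytes and neutrophils, the cells whose genes make up 2 of the competing scores, were among the lower ones. S100a8, a neutrophil and monocyte calcium-binding protein, stood at a mean of 6.00 CPM against 169 CPM in the other cells (−5.35 ± 3.05), and the monocyte antigen Ly6c2 at 217 against 2759 CPM (−4.51 ± 1.95). Lower in all sets too were Gm5960 (−6.05), I830127L07Rik (−5.52), Ctss (−4.40), Gpc1 (−3.80), Cfp (−3.72), Got1 (−3.67), Tifab (−3.59) and Sgms2 (−3.41). Of these 10 differences, 8 include sums of 0 and depend there on the prior count. Among lists, 7 of 10 monocyte genes, 4 of 8 primary granule genes (Mpo, Prtn3, Ctsg and Ms4a3) and 3 of 16 DNA replication genes (Rrm2, Cdc6 and Cdt1) were lower in all sets. Of the erythroid list 1 of the 8 genes in the table was higher in all sets (Gfi1b; median 3.04), and of the mast cell and basophil list 1 of 10 (Mcpt8; median 2.61), or 5 of 10 without day 14. GATA factor partners (1 of 16 higher, Gfi1b; median −0.04), IgE receptor signalling genes (0 of 10; −0.02), mitosis genes (0 of 14; −0.03) and ribosome biogenesis genes (0 of 14; −0.41) mostly did not pass in either direction.

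**Figure D4:**
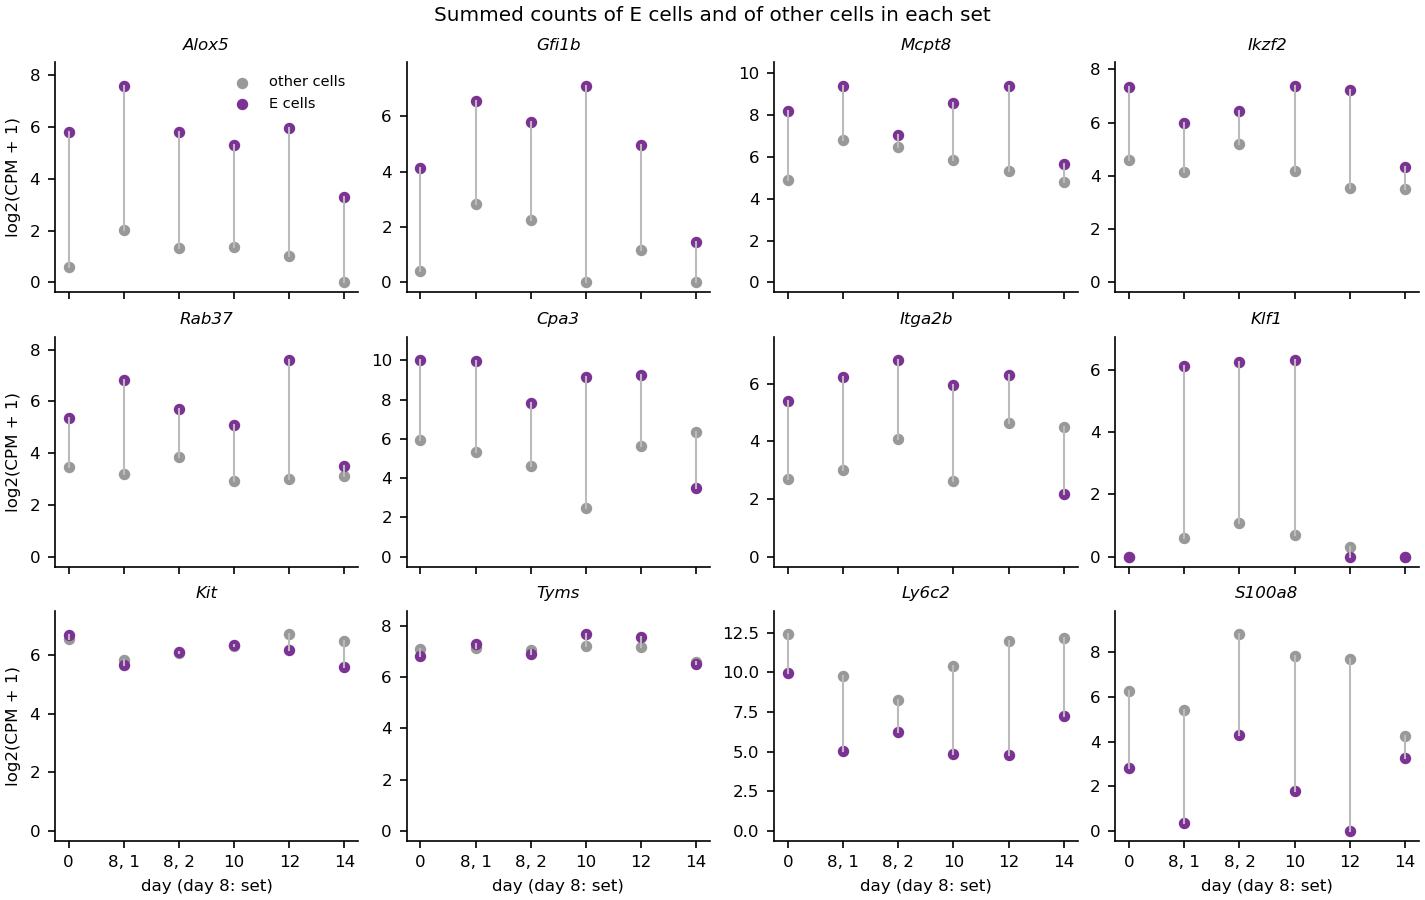
Log2(CPM + 1) of 12 genes in counts summed over E cells (purple) and over other cells (grey) of each set; the x axis gives the day and, for day 8, the set. Alox5 and Gfi1b lie higher in E cells in all 6 sets, Klf1 in the day 8 and day 10 sets, and Ly6c2 and S100a8 lower in all 6. Kit and Tyms differ by −0.23 and 0.08 on average (log2 CPM).

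Days were compared over sums of E cells, 1 sum a set, with edgeR's quasi-likelihood test and Benjamini-Hochberg adjustment. The rule did not compare days, and its 16 genes were kept out of the calls. It scored cells over all days, so which cells count as E cells may differ between days. Genes read in the same cells as a rule gene, as Klf1 was with Gata1, are not independent of that choice. The sums of days 0 (8 cells), 8 (15 and 29), 10 (11) and 14 (9) were fitted, with 1 residual degree of freedom, and days of 1 set were taken to vary like day 8. Day 12, with 2 E cells, was not fitted. On day 8 against day 0, 20 of 11434 genes (0.175%) passed an adjusted p of 0.05, of which 11 were higher (0.0962%) and 9 lower (0.0787%). Each had an adjusted p of 0.047, close to the threshold. With DESeq2 size factors 0 passed and with limma voom 1, while the DESeq2 Wald test called 44, among them all 20. With library totals as the scale 150 passed, 112 of them higher and 38 lower, again with all 20. All 20 had the same sign when either day 8 set was left out, which leaves no residual degree of freedom and no test.

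Klf1, Fcer1a and Endod1 had no read in the 8 day 0 E cells and were higher in the day 8 sums. Klf1 was at least 31.4-fold higher (68.9 and 74.3 CPM), Fcer1a at least 33.8-fold (89.2 and 64.8 CPM) and the nuclease Endod1 at least 36.2-fold (103 and 61.6 CPM), each against 3 reads in the day 0 sum, or 2.28 CPM. These folds bound the reads of the sums and not the share of cells. Fcer1a was read in 5 of 15 and 6 of 29 day 8 E cells, and 0 of 8 on day 0 allows a share of up to 36.9%. Mfsd2b rose from 9.88 CPM to 144 and 156 CPM (log2 difference 3.81, SE 0.50). Both day 8 sets lay on the same side of day 0 for all 4. Klf1 and Mfsd2b are 2 of 11 tested erythroid genes, and the median of the 11 was 3.60 (1.74 with sums of 0 set to 3 reads), against 0.15 (0.11) over all genes. Of the 11 differences 8 were above 0 and 3 below. Only 11 of the 22 listed genes were tested, and a gene could enter through its reads on 1 day alone. The list median is therefore a description and no test of the list. Fcer1a was 1 of 11 tested mast cell and basophil genes called, and their median was 0.04. Gfi1b (2.00, adjusted p = 0.14), Epor (3.60, 0.197), Cpa3 (−0.89, 0.484), Mcpt8 (0.32, 0.835) and Prss34 (−2.92, 0.33) did not pass the edgeR test.

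The rule genes are given as values only, since they chose the cells. Gata1 stood at 27.3 CPM in the day 0 sum and at 138 and 109 CPM in the day 8 sums, Car2 at 104 against 520 and 466, and Ms4a2 at 72.2 against 303 and 308. Gata2 stood at 220 against 391 and 220. Both day 8 sums of Gata1, Car2 and Ms4a2 thus lay above day 0, and their part in the changes of Klf1 and Mfsd2b was not tested. Klf1 in other cells stood at 0 CPM for day 0 and at 0.517 and 1.13 CPM for the day 8 sets.

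Among the remaining genes higher on day 8 were Lcn2, which encodes the lipocalin of neutrophil granules (2.28 to 81.4 and 83.8 CPM), Ctla2a (6.08 to 113 and 93.7), the dynein light chain Dynlt3 (6.84 to 132 and 95.2), Vps33a, of lysosome trafficking (1.52 to 61.1 and 56.2), and the kinesin Kif22 (12.9 to 152 and 131). The Mir6236 gene entry went from 28.1 to 2601 and 6184 CPM, and was at 81 CPM on day 10. Lower on day 8 were Ly6c2 (996 to 31.4 and 72.8 CPM), Rnase12 (119 to 8.61 and 10.8), Zfp329 (133 to 6.67 and 8.01), Mynn (160 to 19.7 and 17.3), the peptidase Cpq (258 to 30.3 and 42.8), the interferon-induced Ifi27 (166 to 26.4 and 21.6), and the phosphatase Dusp1, an immediate early gene (240 to 32.2 and 44.7). Xist fell (166 to 0.556 and 4.84 CPM) and Eif2s3y, a Y-linked gene, rose (0.760 to 72.8 and 43 CPM), and for each of the 20 genes day cannot be told apart from sex.

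**Figure D5:**
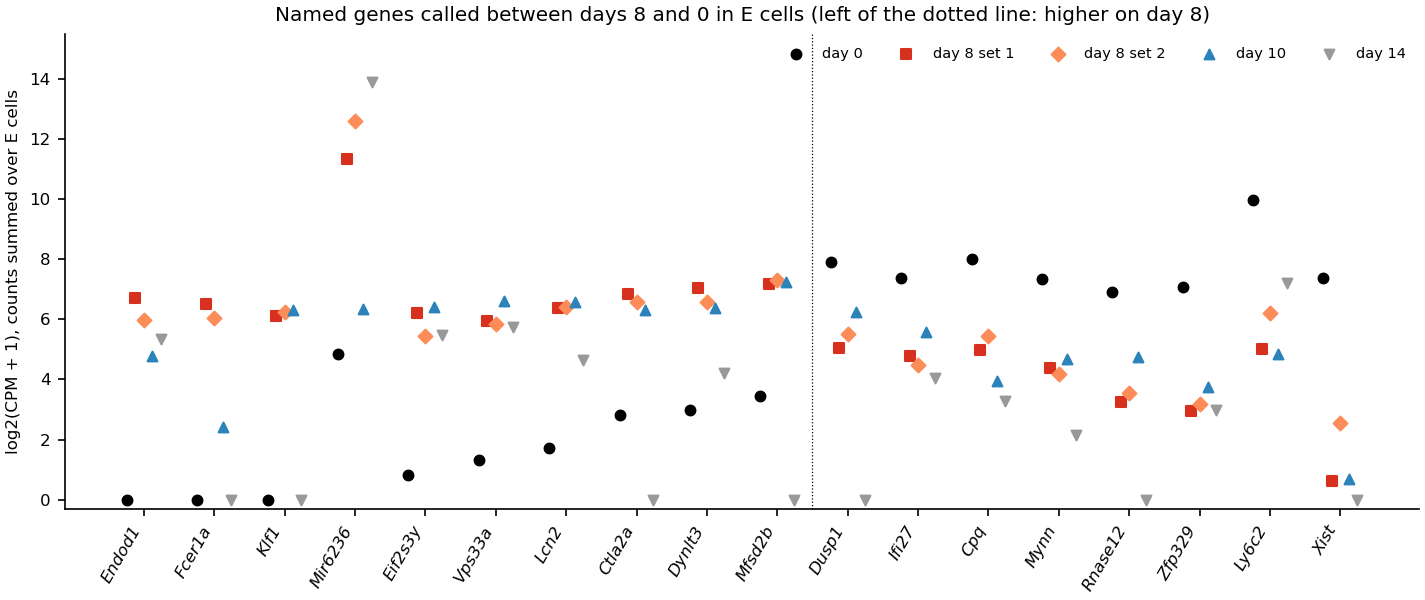
Log2(CPM + 1) of counts summed over E cells for 18 of the 20 genes called between days 8 and 0, with 1 point a set; genes left of the dotted line were higher on day 8. Klf1, Mfsd2b and Ctla2a on day 10 lie near the day 8 sets, and on day 14 they are at 0.

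Further lists were given by their counts. Of 14 tested heme synthesis and iron uptake genes 0 were called between days 8 and 0, with 12 differences above 0 (median 1.16). Of 6 lipid mediator genes 0 were called, with 6 above 0 (median 2.19), among them Alox5 at 55.5 CPM on day 0 and 191 and 54.8 on day 8. Of 16 DNA replication genes 0 were called, with 13 above 0 (median 0.60), and of 14 mitosis genes 0, with 10 above 0 (median 0.54). Of 5 cell cycle inhibitors 0 were called, with 0 above 0 (median −0.95). GATA factor partners (0 of 16, median −0.09), granule genes (0 of 8, −0.22) and cytokine receptors (0 of 12, 0.74) had none called either. Of 8 monocyte genes 1 was called lower (Ly6c2; median −1.61). The median over all tested genes was 0.15, or 0.27 with library totals.

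On day 10 against day 8, 0 of 11434 genes passed (0%) by edgeR, with 1336 at an unadjusted p under 0.05, 1 by the DESeq2 Wald test and 0 by limma voom. Klf1 (77.9 CPM), Mfsd2b (151) and Gfi1b (136) on day 10 lay near or above both day 8 sets. Epor was higher in value, at 40.8 CPM against 9.17 and 11.7 (log2 difference 2.00, SE 0.76, edgeR adjusted p = 0.374), and Fcer1a lower, at 4.4 against 89.2 and 64.8 (−4.05, SE 0.72, adjusted p = 0.22). Mast cell and basophil genes had a median of −0.03 over 11 tested, and erythroid genes of 0.96, against −0.09 over all genes.

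On day 14 against day 8, 985 of 11434 genes passed (8.61%), 419 higher (3.66%) and 566 lower (4.95%), in cells with few genes in which Slc34a2 took 608969 CPM. The split moved with the scale: DESeq2 size factors gave 320 higher and 121 lower, and library totals 269 higher and 3999 lower, while the median over all genes went from −0.78 to −0.58 and −1.90. Klf1, Gfi1b and Mfsd2b of 11 tested erythroid genes and Cpa3, Fcer1a and Slc18a2 of 11 tested mast cell genes were lower, and 4 of 8 monocyte genes (Ly6c2, Ms4a6c, Lyz2 and Tifab) were higher. These monocyte genes were read in 5, 2, 3 and 2 of the 9 day 14 E cells, and the last 3 had a median of 0 CPM. The largest falls named by the rule were genes with no read on day 14, Apoe (269 and 305 CPM on day 8), Cat (226 and 107), Mfsd2b (144 and 156), Pgrmc1 (153 and 145) and Acap1 (173 and 102). The largest rises were Lrrc4b (97.4 CPM against 0.556 and 3.73), Caln1 (38.3 against 0.556 and 1.30), I830077J02Rik (50.5 against 0 and 2.61), Gpr141 (34.8 against 1.11 and 0.931) and Gm37600 (43.5 against 0.833 and 2.79). Only 2 of the 9 day 14 E cells had an E score above 0, and the part of depth and of Slc34a2 in these differences was not tested.

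The change from day 0 to day 8 was also compared between E cells and the other cells of the same sets, with set as a block. By edgeR 0 of 14674 genes passed (0%), with 1923 at an unadjusted p under 0.05, 11 by the DESeq2 Wald test and 0 by limma voom. By edgeR the changes in E cells given above are therefore not shown to differ from those of other cells. The 11 Wald calls include Kif22, Vps33a and Dynlt3, named above as higher on day 8. Their log2 differences were 3.53, 5.13 and 3.19, with DESeq2 Wald adjusted p of 0.000437, 0.0254 and 0.0451. None of these passed by edgeR or limma voom. Klf1 and Fcer1a could not be compared in this way, as both E cells and other cells of day 0 had no read. For Gfi1b the difference of changes was −1.73 (SE 0.76, adjusted p = 0.388), for Cpa3 −0.11 (SE 0.50, 0.951) and for Itga2b 0.19 (SE 0.57, 0.919).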

How the data were processed

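The authors deposited raw counts, as whole numbers of reads for each gene in each cell; per the submitters' processing notes, GSNAP, HTSeq (0.5.3p3) and mm10 were used. Strand use is not given in the sources used here. Without molecular identifiers, copies made by PCR are counted, so intervals and floors cover counting error only. Of 574 labelled cells 573 were matched to a column, 1 column was not used, and 500 with at least 50000 reads in genes and 1000 genes were kept. The 5 rows naming no gene (median 91.1% of a cell's reads) and 92 spike-in rows were left out of totals. Of 46078 gene IDs 45143 had a symbol (GENCODE vM21). No 2 cells held identical values.

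Counts of E cells were summed per set where at least 5 E cells were present, and tested with edgeR 4.0.16 (quasi-likelihood F test, TMM scaling, filterByExpr, a read in at least 10% of E cells, adjusted p under 0.05). A second fit with set as a block tested the difference of changes between E cells and others. E cells against others were described by log2 CPM (prior count 2). Cells were thinned to 50000 reads (seed 11) to count programs. DESeq2 1.42.0 and limma 3.58.1 (voom) were alternatives, as were other scalings, filters, cell cuts and lists. Scripts ran under R 4.3.3 and Python 3.11.15 (with scipy 1.17.1, pandas 2.3.3, matplotlib 3.10.9 and numpy 2.4.6), and the fits were tested on simulated data. The members and gene lists were chosen with earlier results of these data known. Genes named are the rule genes, the 15 highest and 10 lowest of E cells against others (at least 32 CPM, read in 20% of cells, same sign in 6 of 6 sets), up to 10 per direction on day 8 and 5 elsewhere, and members of the lists; a few single-gene results are not reported here.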

Additional observations from a re-analysis of the deposited data

How the results depend on the processing

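The share of E cells moved beyond its interval as follows. Asking for a margin of 0.5 over the next score gave 8.89% and 18.3% in the day 8 sets and 6.38% on day 14. Cells with at least 200000 reads and 2000 genes gave 3.92% on day 10 and 0% on day 14. On day 14 a score of at least 1 gave 2.13%, and, chosen after seeing the data, a score above 0 gave 4.26% and at least 4000 genes 8.33%. Genes called between days 8 and 0 (20) became 0 with DESeq2 size factors, 44 with the DESeq2 Wald test, 1 with limma voom, 716 without a gene filter, 188 with thinned cells and 54 with days 0 and 8 alone. Added after seeing the data, a score above 0 and leaving out day 14 each gave 48, and library totals 150. Between days 10 and 8 (0), the Wald test gave 1, no filter 251, thinning 7, a score above 0 1, and library totals 3. Between days 14 and 8 (985), DESeq2 size factors gave 441, the Wald test 504, voom 95, no filter 2486 and library totals 4268. For the difference of changes (0), the Wald test gave 11, no filter 364, and thinning, days 0 and 8 alone, a score above 0, no day 14, and no Slc34a2 or CT010467.1 gave 1 each, in all 5 cases Prg2. E cells with both programs (19) were 32 with 1 marker, 12 with 3 markers and 7 with the shorter mast cell list; those with the erythroid one alone (4) were 1 with 1 marker, 2 without thinning and 16 with that list. Genes higher in E cells (51) were 120 without Slc34a2 and CT010467.1, 33 thinned, 13 by mean log values and 167 without day 14; lower ones (718) were 1157 with a score of at least 1. In cells with at least 200000 reads P2rx1 (−2.17), 4930519L02Rik (−1.71), Apobec1 (−0.32) and Parp11 (−0.50) changed sign, and Nrip1 (−0.77) did with a score of at least 1. The cause was not tested for any of these. A further 82 values of these counts and shares under other settings stayed within an interval or 1.5 times of those reported. No paired analysis was possible because, between days, no set is shared and only day 8 has more than 1; E cells and other cells, which do share sets, were compared within sets as reported. Leaving out either day 8 set left no residual degree of freedom and no test. Not run, for too few E cells, were fits in deep cells, a score of at least 1 for days 0 and 14, and any fit of day 12.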

Other observations

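Eosinophil granule genes were read in a few E cells, which were chosen here after their values were seen. Prg2, which encodes major basic protein, stood at 41531 CPM in cell 41 of the second day 8 set, with the peroxidase gene Epx at 1283 CPM and Prg3 at 1914 CPM. Cell 17 of day 0 had Prg2 at 13252 CPM and Prg3 at 2633 CPM, and cell 6 of day 10 had them at 5421 and 1331 CPM. With at least 2 reads after thinning, Prg2 was seen in 4 E cells, of which 2 had Gata1. The eosinophil list summed to 3182, 65.6, 905, 630, 30.3 and 8.70 CPM in E cells in set order, and to 22 to 286 CPM in other cells. The highest single cell of all lay outside the E cells, at 56321.5 CPM of Prg2 on day 0. In the comparison of changes from day 0 to day 8 between E cells and others, Prg2 had the smallest p of 14674 genes and did not pass (log2 difference 4.54, SE 0.31, edgeR adjusted p = 0.056). It was the 1 gene that passed with thinned cells (adjusted p = 0.000141), with a score above 0 (0.00649), without day 14 (0.0102), without Slc34a2 and CT010467.1 (0.0127) and with days 0 and 8 alone (0.0147). Its day 8 sums in E cells were 0 CPM in the first set and 786 CPM in the second. The other cells of the first set had 0 CPM too, so the 2 day 8 sets do not replicate the difference. The sums come from few cells, such as those named here, and these p-values do not measure the spread between cells or mice.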
